A study of Mus musculus with 14 samples.

Results

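Medulloblastoma cells from mice heterozygous for Patched (the 5 samples titled tumor) were compared with preneoplastic cells from mice of the same genotype (the 5 samples titled pretumor). The 10 samples were taken by their titles out of the 14 in the series. Pretumor cells were taken at 6 weeks of age. Tumor cells were taken at 10 to 25 weeks, from animals with signs of the disease. The other 4 samples are granule cell precursors (GCP) from mice aged 7 days and served only to estimate the spread and to show where a level stood before. Per the labels, the Patched heterozygotes were kept on a 129X1/SvJ breeding scheme and all 3 groups carry the allele. Cells were dissociated with papain and DNase, collected at the border of a 35% and a 65% Percoll step, not sorted by flow cytometry, and frozen. Stage and age differ together in these groups and cannot be told apart. The titles only number the samples, and nothing says that each came from a separate animal, so a p-value here reflects variation among these arrays, some of which may be technical.

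Patched (Ptch1) encodes the hedgehog receptor, which represses the pathway until ligand binds. Granule cell precursors divide in response to Sonic hedgehog during early postnatal life and then become granule neurons, and loss of Patched function keeps some of them dividing. A subset of Patched heterozygous mice later develops medulloblastoma, a tumor of the cerebellum, from such cells. The cerebellum also holds Bergmann glia, astrocytes, myelinating oligodendrocytes, Purkinje cells and interneurons, and it lies beside the choroid plexus and the meninges. A suspension from dissociated tissue can hold RNA of any of these.

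Each sample was hybridised to 1 expression array, read here as log2 intensity for 12422 probe sets. A level under log2 4 (an intensity of 16) is called the low band below. A probe set was called where limma's adjusted p, with all 14 arrays in the fit, was under 0.05. Folds compare group means. Where only the lower mean lay in the low band the fold was computed against an intensity of 16 and is given as "at least", and where both means lay in the band no fold is given.

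The called changes from pretumor to tumor were mostly falls. They included genes of astrocytes and Bergmann glia, of myelin and of the choroid plexus, while no granule lineage factor was called and Stmn1 was the only cell cycle gene called. Of the 51 genes called lower with a mean above the low band, 13 were in the lists of other cell types and 20 in any list. The oligodendrocyte list held 5 of the 51 and 8 of all 3058 genes with a mean above the band. For the astrocyte list these were 4 and 14, choroid plexus 2 and 5, Purkinje cell 1 and 4, and meninges 1 and 11. The endothelium and microglia lists each held 0 of the 51 and 8 of the 3058. Whether these counts exceed the share of all measured genes held by the lists was not tested. The lists were drawn up with earlier results of these data known. Of 12422 probe sets, 124 were called (0.998%): 98 lower in tumor (0.789%) and 26 higher (0.209%). With 1 probe set for each gene, 79 of 8251 genes were called lower (0.957%) and 11 higher (0.133%), together 90 (1.09%). The 5 tumor values did not overlap the 5 pretumor values in 325 probe sets (2.62%), 200 lower and 125 higher, and 116 of the 124 called were among these. Of the calls, 45 had both means in the low band, 39 of them lower. At an unadjusted p under 0.05 there were 777 probe sets higher and 630 lower, so the preponderance of falls belonged to the called set. With the 10 compared arrays alone 50 probe sets were called (0.403%), 46 lower and 4 higher, and 47 of these were among the 124. The median difference over all genes was 0.02 on the log2 scale.

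**Figure D1:**
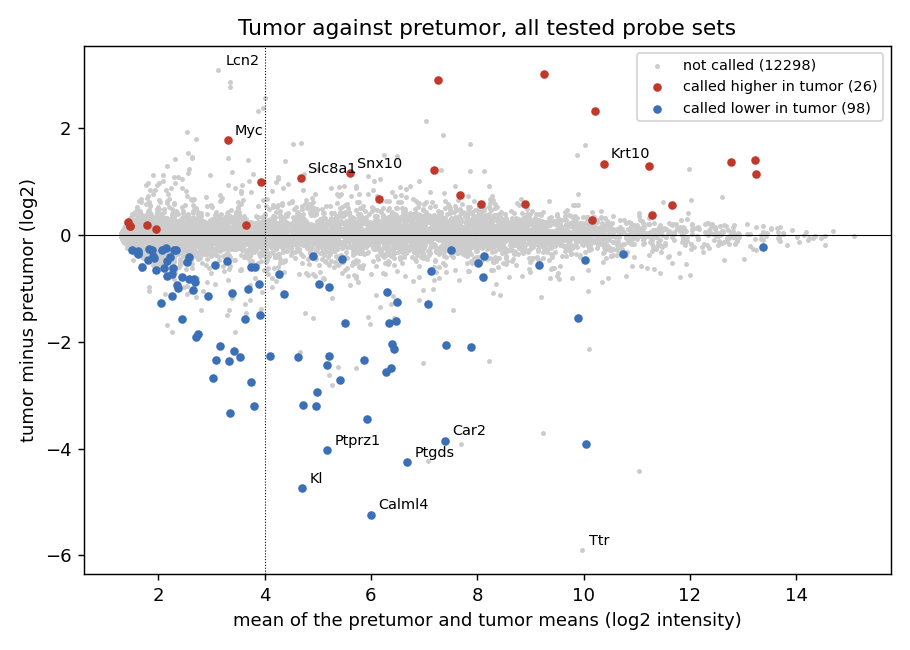
Each point is a probe set, with the mean of the pretumor and tumor means (log2 intensity) on the x axis and tumor minus pretumor (log2) on the y axis; the dotted line marks the low band at log2 4. The 98 probe sets called lower reach -5.24 (Calml4), while the 26 called higher stay at or under 3.01.

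The arrays were alike in overall level. Median intensities lay between 4.12 and 4.38 in the 10 arrays, and 29.2% to 29.7% of probe sets were at 16 or more. Correlations of log2 values over all probe sets ran from 0.987 to 0.998 within pretumor, from 0.983 to 0.996 within tumor and from 0.980 to 0.991 between the groups, so the groups did not separate by correlation alone. Pretumor 3 and tumor 2 got the lowest array weights from limma, 0.23 and 0.36. Without both, 100 probe sets were called, 78 lower and 22 higher, and 13 of the calls named here ended (adjusted p 0.0559 to 0.154): Acly, Bmp6, Calb1, Cdk8, Eno2, Folr1, Gja1, Grhpr, Ldhb, Msx1, Ogfod2, Selenof and Sox2. Counts fell furthest without pretumor 2 or tumor 4 (70 each) and without pretumor 1 (72). The 3′ to 5′ ratio of the Gapdh control probe sets, a sign of RNA integrity, ran from 0.01 to 1.08 (log2) in pretumor and from 0.15 to 0.42 in tumor, and that of actin from 4.13 to 4.87 and from 3.93 to 4.85. Their part in the results was not tested.

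Most granule lineage factors were measured above the low band in both groups, 14 of 18. Nfix, a nuclear factor of granule neuron maturation and the brightest of the 18 granule lineage factors, was at 13.25 ± 0.18 in pretumor and 12.80 ± 0.23 in tumor (log2, mean ± SD, n = 5 each; adjusted p = 0.107). Neurod1, a transcription factor of differentiating granule cells, was at 11.45 ± 0.40 and 11.58 ± 0.46, and Pax6, another factor of the lineage, at 8.80 ± 0.75 and 8.31 ± 0.33; these names were chosen after their values were seen. Atoh1, the factor that defines the precursors, lay in the low band in both groups (1.90 and 2.01), so this marker does not check the cell type here. None of the 18 was called by limma, with 2 lower and 0 higher at an unadjusted p under 0.05 and 0 called with the 10 arrays alone. Their median difference was -0.02, beside 0.02 over all genes.

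Ptch1 itself did not differ beyond the spread. Its brighter probe set read 7.85, 7.36, 7.83, 7.50 and 7.11 in pretumor 1 to 5 and 8.23, 7.93, 7.63, 8.26 and 6.91 in tumor 1 to 5. The ranges overlapped, and tumor 5 was the lowest of all 10. The difference was 0.26 ± 0.24 (log2, SE; limma adjusted p = 0.745), and the other probe set lay in the low band in both groups, at 2.00 and 2.07. Because every group carries the heterozygous allele, this gene does not check the labels.

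Myelin genes were prominent among the falls. Of 16 measured genes of the oligodendrocyte list, 6 fell, none rose and 10 were not called; with the 10 arrays alone 5 were called. The difference was under 0 for 14 of the 16, with a median of -0.87, beside 41.1% of all genes under 0 and a median of 0.02. The summed intensity of the list was 2711 to 4567 in pretumor and 1532 to 2785 in tumor. In GCP it was 1781 to 2051, so the pretumor level was itself above that of the precursors. Fewer cells of a type and less RNA per cell cannot be told apart in these bulk samples, here or for the lists that follow.

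Car2, the cytosolic carbonic anhydrase II that is abundant in oligodendrocytes, read 10.07, 9.22, 9.31, 9.41 and 8.64 in pretumor 1 to 5. In tumor 1 to 5 it read 6.67, 6.39, 5.14, 4.81 and 4.35. Every tumor lay below every pretumor sample by a wide margin. The difference was -3.86 ± 0.42 (SE), a 14.5-fold fall (limma adjusted p = 0.000989).

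Mal, a proteolipid of compact myelin, read 6.66, 7.23, 5.01, 7.57 and 6.39 in pretumor and 3.88, 3.35, 3.75, 2.90 and 2.99 in tumor. All 5 tumors were in the low band, and pretumor 3 was the lowest of its group. The fall was at least 5.94-fold (difference -3.20 ± 0.42, adjusted p = 0.00366).

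Gsn, the actin-severing protein gelsolin, read 5.86, 6.11, 3.85, 6.44 and 4.77 in pretumor and 2.44, 2.39, 2.21, 1.80 and 2.13 in tumor. Pretumor 3 was again lowest and itself in the low band, and the groups did not overlap. The fall was at least 2.65-fold (difference -3.21 ± 0.46, adjusted p = 0.00535). Mog, a glycoprotein of the outer myelin surface, showed the same order of groups, with 4.39 to 5.90 in pretumor and 1.36 to 3.30 in tumor (difference -2.74 ± 0.43, adjusted p = 0.0101). For both genes the call ended when values were floored at 16.

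Mbp, myelin basic protein, read 7.27, 7.23, 6.85, 7.72 and 6.74 in pretumor and 5.73, 5.71, 5.76, 5.51 and 4.87 in tumor on its brighter probe set. The groups did not overlap, and the fall was 3.12-fold (difference -1.64 ± 0.23, adjusted p = 0.00453). A second Mbp probe set was at 4.36 ± 0.16 and 4.28 ± 0.40 (adjusted p = 0.927). Mag, myelin-associated glycoprotein, was called inside the low band (3.23 ± 0.80 to 1.66 ± 0.08, adjusted p = 0.0335, and 0.132 with the 10 arrays alone); leaving out any array other than pretumor 3 and pretumor 5 ended that call, at adjusted p of 0.0512 to 0.0838. Cldn11, the claudin of myelin tight junctions, was at 6.83 ± 0.72 and 5.16 ± 0.77 and was not called (adjusted p = 0.0979). Mbp, Mag and Cldn11 were chosen after their values were seen.

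The astrocyte and Bergmann glia list showed the same direction. Of its 25 measured genes 7 fell, none rose and 18 were not called, and 4 were called with the 10 arrays alone. The difference was under 0 for 22 of the 25, with a median of -0.76. The summed intensity was 3896 to 8614 in pretumor and 1710 to 5274 in tumor, and 14431 to 19110 in GCP, so the pretumor level was itself below that of the precursors. The count of called members was 4 without pretumor 1 and 4 without tumor 4.

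Ptprz1, a receptor-type phosphatase of radial glia and astrocytes, read 7.07, 7.20, 7.26, 7.30 and 7.13 in pretumor, with the smallest pretumor SD (0.10) of the 15 largest falls named by the rule. In tumor 1 to 5 it read 2.76, 4.86, 2.26, 3.92 and 2.01. Tumor 2 was the highest tumor and still far below the pretumor samples. The fall was at least 9.14-fold (difference -4.03 ± 0.45, adjusted p = 0.00106), and the GCP mean was 7.85 ± 0.25 (SD, n = 4).

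Hopx, a small homeodomain protein found in Bergmann glia and astrocytes, read 7.14, 7.79, 7.24, 7.54 and 7.38 in pretumor and 5.72, 6.06, 5.22, 5.07 and 4.83 in tumor. No tumor reached the pretumor range, and the fall was 4.11-fold (difference -2.04 ± 0.21, adjusted p = 0.000638). Clu, the secreted chaperone clusterin, read 6.93, 6.22, 6.99, 5.49 and 5.91 in pretumor and 3.72, 4.42, 3.45, 2.41 and 1.60 in tumor. It fell at least 4.95-fold (difference -3.19 ± 0.54, adjusted p = 0.017), but its adjusted p was 0.0632 with the 10 arrays alone and up to 0.0501 without pretumor 1 or without tumor 4.

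Gja1, the gap junction protein connexin 43, read 9.09, 9.23, 8.69, 8.99 and 8.66 in pretumor and 7.12, 7.35, 8.23, 5.52 and 5.94 in tumor. Tumor 3 came closest to the pretumor range, and the groups did not overlap. The fall was 4.28-fold (difference -2.10 ± 0.42, adjusted p = 0.0408). This call was marginal: it was lost with the 10 arrays alone (adjusted p = 0.147) and without any single array except tumor 3 (0.0593 to 0.111). A second Gja1 probe set went from 5.76 ± 0.38 to 3.57 ± 1.35 and was not called (limma adjusted p = 0.0858).

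Gjb6, connexin 30, and Aldoc, the brain aldolase that is strong in astrocytes and in stripes of Purkinje cells, were called within the low band, at adjusted p = 0.000401 and 0.000267. Gjb6 went from 2.68 ± 0.17 to 1.41 ± 0.14 and Aldoc from 3.67 ± 0.38 to 1.75 ± 0.09. Ntsr2, a neurotensin receptor of astrocytes, was also called there (2.80 ± 0.23 to 2.29 ± 0.08, adjusted p = 0.0224), but had 0.102 with the 10 arrays alone and 0.0552 to 0.0627 without pretumor 1, pretumor 4, tumor 1, tumor 2 or tumor 4. Aqp4, the water channel of astrocyte endfeet, was not called (adjusted p = 0.152): tumor 1, at 6.56, lay inside the pretumor range of 6.04 to 6.99, while tumor 3 to 5 were at 2.33 to 2.91. Gdf10, a growth factor made by Bergmann glia, likewise had a single tumor inside the pretumor range, tumor 3 at 6.95 (adjusted p = 0.106). Hopx, Gjb6, Ntsr2, Aqp4 and Gdf10 were chosen after their values were seen.

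**Figure D2:**
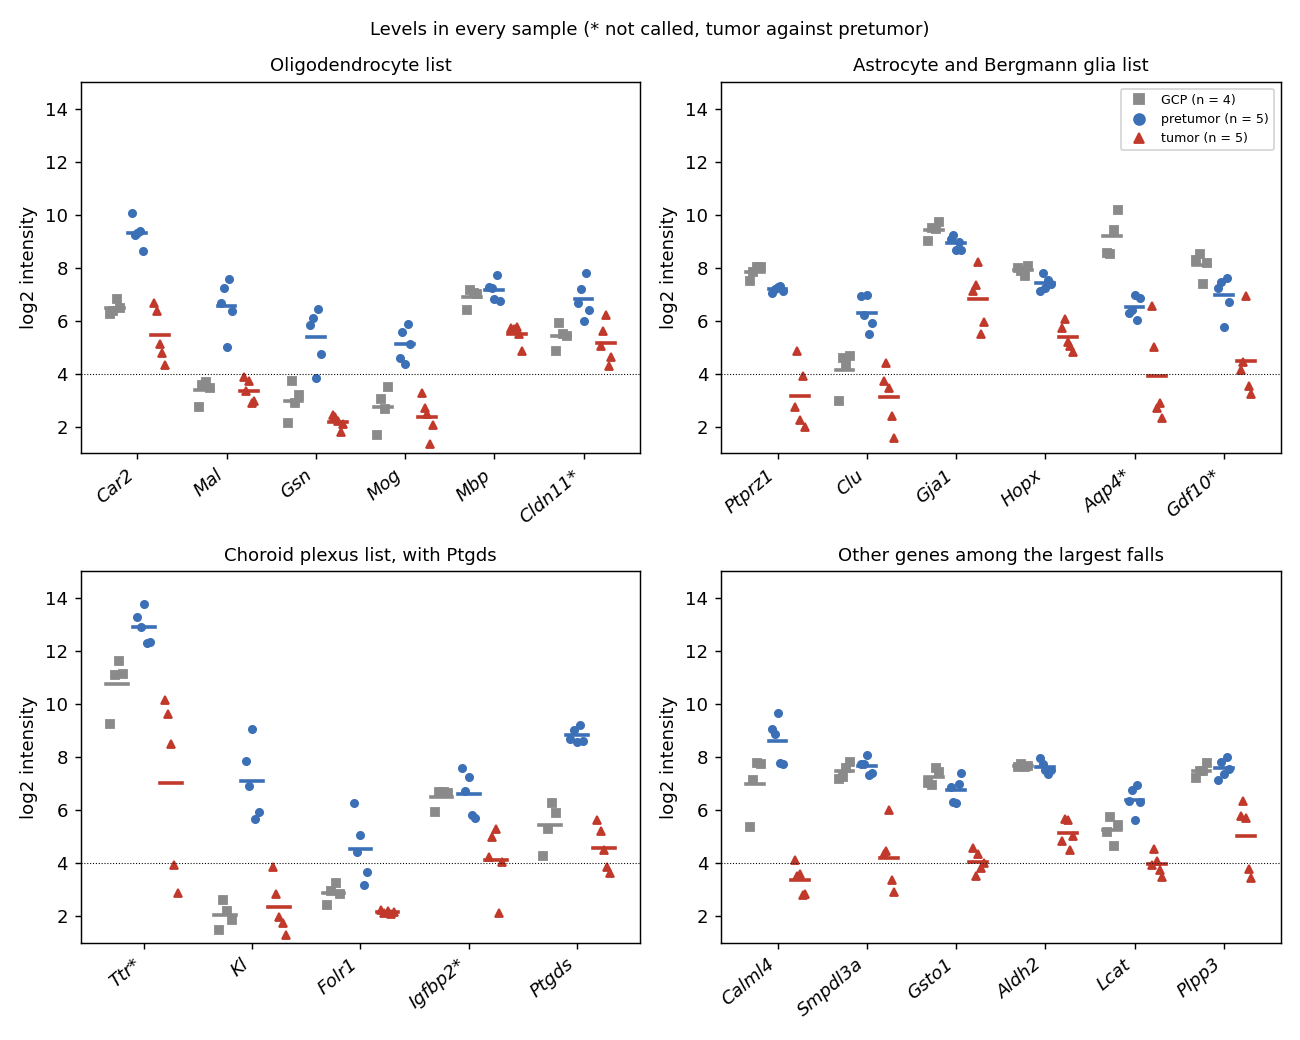
Log2 intensity (y axis) of genes in 4 panels for every GCP, pretumor and tumor sample; bars are group means, the dotted line is the low band at log2 4, and an asterisk marks genes that were not called. The tumor values of Car2 (4.35 to 6.67) and Ptgds (3.63 to 5.62) lie wholly below the pretumor values, while single tumors reach the pretumor range for Aqp4 and Gdf10.

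Genes of the choroid plexus, the epithelium that secretes cerebrospinal fluid, summed to 5250 to 14741 in pretumor, 74.7 to 1210 in tumor and 729.6 to 3354 in GCP. That sum was mostly Ttr, which was not called and made up 94.6% to 96.8% of it in pretumor and 8.76% to 93.5% in tumor. Without Ttr the list summed to 168.6 to 790.1 in pretumor and 59.6 to 101.7 in tumor. Of 14 measured members 3 fell, none rose, and 1 was called with the 10 arrays alone and 1 without pretumor 3 and tumor 2. The difference was under 0 for 13 of the 14, with a median of -0.31, and 9 members, among them the claudin Cldn2 and the water channel Aqp1, were in the low band in both groups. The count of called members was 1 without GCP 3, GCP 4, pretumor 2, tumor 2, tumor 4 or tumor 5, 4 without pretumor 4 and 2 without each of the others.

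Kl, the ageing-related membrane protein klotho that is strong in choroid plexus, read 7.85, 6.91, 9.06, 5.68 and 5.91 in pretumor and 3.87, 2.82, 1.98, 1.73 and 1.30 in tumor. All 5 tumors were in the low band and the pretumor samples spanned more than 3 log2 units, with pretumor 3 highest. The fall was at least 8.47-fold (difference -4.74 ± 0.66, adjusted p = 0.00453). GCP were also low for Kl, at 2.04 ± 0.49, so the pretumor group stood above both others.

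Ttr, the thyroxine carrier transthyretin and the chief secreted product of that epithelium, read 13.29, 12.89, 13.77, 12.31 and 12.34 in pretumor. In tumor 1 to 5 it read 10.14, 9.63, 8.50, 3.92 and 2.88. No tumor reached the pretumor range, yet the tumors differed from each other by more than 7 log2 units. With that spread the 59.9-fold lower mean was not called (difference -5.90 ± 1.31, adjusted p = 0.0612). It was called with array weights (0.00371), with only probe sets of mean intensity 16 or more (0.0149), with a pseudocount of 1 (0.0433) or 16 (0.0404), with a trended robust prior (0.0379) and without tumor 1 (0.0435).

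Folr1, a folate receptor of the same epithelium, was at 4.52 ± 1.20 in pretumor and 2.16 ± 0.06 in tumor. It was called (adjusted p = 0.0335), with 0.13 for the 10 arrays alone and up to 0.0838 without single arrays (each GCP array, pretumor 2, pretumor 3 or any tumor). Msx1, a homeobox gene, was called within the low band (adjusted p = 0.0345; 0.0924 with the 10 arrays alone) and lost its call, at 0.0521 to 0.0955, without GCP 3 or 4, pretumor 1, 2 or 5, or any tumor. Igfbp2, an IGF-binding protein, was at 6.61 ± 0.84 and 4.13 ± 1.25 with no overlap and was not called (adjusted p = 0.0719); this gene was chosen after its values were seen.

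Ptgds, the prostaglandin D2 synthase made by meninges, choroid plexus and oligodendrocytes, was among the largest called falls. It read 8.70, 9.0, 8.58, 9.21 and 8.59 in pretumor and 5.62, 5.21, 4.50, 3.84 and 3.63 in tumor. The pretumor samples were tight and every tumor lay well below them, with tumor 4 and tumor 5 in the low band. The fall was 19.1-fold (difference -4.26 ± 0.43, adjusted p = 0.000595), and the GCP mean was 5.43 ± 0.87. A second probe set also fell (4.37 to 1.69, adjusted p = 0.0319), and another, in the low band, was not called (adjusted p = 0.0812). Ptgds was the only called member of 46 measured meninges and matrix genes. The difference was over 0 for 33 of the 46, beside 57.2% of all genes, with a median of 0.12. At an unadjusted p under 0.05, 8 were higher and 3 lower, and 2 in each direction were without overlap.

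The promoter of Ptgds is shown because the gene is among the strongest falls and its window carries several of the motifs searched. It lies at chr2:25469700-25469999 on the minus strand (GRCm38.p6, RefSeq), from 250 bases before the gene start to 50 after. Capitals mark CAGCTG E-boxes at -154 and -117, a CAGATG E-box at -129 and an AP-1 match (TGANTCA) at -35 from the start, none of which overlap.
Ptgds: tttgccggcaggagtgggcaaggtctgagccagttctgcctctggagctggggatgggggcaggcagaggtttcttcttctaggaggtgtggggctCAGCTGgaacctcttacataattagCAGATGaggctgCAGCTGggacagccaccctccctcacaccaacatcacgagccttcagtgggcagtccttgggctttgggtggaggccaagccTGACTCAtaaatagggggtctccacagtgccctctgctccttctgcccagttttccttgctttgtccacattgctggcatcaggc

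The motif search covered both strands of all 32851 RefSeq mouse promoters of that window. Among 88 promoters of 63 genes called lower, an AP-1 match stood in 6.82% beside 7.81% of all promoters, the CAGCTG E-box in 18.2% beside 16.3%, the CAGATG E-box in 12.5% beside 17.2%, and the heat shock element GAANNTTC in 4.55% beside 7.86%. The cyclic AMP element TGACGTCA stood in 3.41% beside 1.79%, which is 3 promoters. A GLI match (TGGGTGGTC) was in none of the 88 and in 0.253% of all. No test of these differences was run, and a match of letters is not a bound site.

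Other large falls had no place in the cell type lists. Calml4, a calmodulin-like protein, had the largest called fall of all genes. It read 9.04, 8.88, 9.65, 7.78 and 7.72 in pretumor and 4.13, 3.52, 3.60, 2.78 and 2.85 in tumor. Only tumor 1 rose above the low band, and the fall was at least 24.5-fold (difference -5.24 ± 0.51, adjusted p = 0.000523). The GCP mean was 7.00 ± 1.12.

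Smpdl3a, an acid sphingomyelinase-like phosphodiesterase, read 7.72, 7.72, 8.08, 7.33 and 7.40 in pretumor and 4.35, 4.44, 6.01, 3.35 and 2.90 in tumor. Tumor 3 was the highest tumor, and the 10.9-fold fall held without overlap (difference -3.44 ± 0.46, adjusted p = 0.00408). Gsto1, an omega class glutathione transferase, read 6.88, 6.29, 6.28, 6.98 and 7.39 in pretumor and 4.58, 3.51, 4.33, 3.83 and 4.02 in tumor. The tumor samples lay within about a log2 unit of each other, and the fall was 6.54-fold (difference -2.71 ± 0.25, adjusted p = 0.000401).

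The Gsto1 promoter, at chr19:47854723-47855022 on the plus strand (GRCm38.p6, RefSeq), held a CArG box, the serum response factor motif, at -32. It is shown because Gsto1 and Hopx were the 2 genes called lower with such a match; CArG boxes stood in 2.27% of the 88 promoters beside 1.63% of all. Capitals mark the CArG box.
Gsto1: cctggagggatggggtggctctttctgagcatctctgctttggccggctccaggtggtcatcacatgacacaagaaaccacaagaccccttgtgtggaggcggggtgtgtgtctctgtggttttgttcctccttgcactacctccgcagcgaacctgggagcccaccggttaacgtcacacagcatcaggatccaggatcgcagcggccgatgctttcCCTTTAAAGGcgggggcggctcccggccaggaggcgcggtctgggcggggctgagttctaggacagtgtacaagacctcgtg

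Aldh2, the mitochondrial aldehyde dehydrogenase, had the smallest adjusted p of all (0.000267, shared with Aldoc). It read 7.96, 7.73, 7.50, 7.37 and 7.51 in pretumor and 4.84, 5.65, 5.62, 4.51 and 5.03 in tumor, a 5.60-fold fall with more than a log2 unit between the groups. Lcat, a cholesterol-esterifying enzyme of lipoproteins, went from 6.39 ± 0.51 to 3.95 ± 0.39 (at least 5.23-fold, adjusted p = 0.00136). Plpp3, a lipid phosphate phosphatase, went from 7.57 ± 0.35 to 5.01 ± 1.30, with tumor 4 and tumor 5 lowest at 3.78 and 3.45. Its call (adjusted p = 0.0345) was lost with the 10 arrays alone (0.141) and without any array other than tumor 1, 2, 3 or 5 (0.0534 to 0.0955).

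Mtx2, metaxin 2 of the mitochondrial import machinery, read 6.95, 6.55, 4.92, 6.71 and 7.17 in pretumor and 3.33, 2.83, 4.82, 2.21 and 4.37 in tumor. The highest tumor (tumor 3) came within 0.1 of the lowest pretumor sample (pretumor 3). The fall was called (difference -2.95 ± 0.52, adjusted p = 0.0203), but not with the 10 arrays alone (0.103) or without pretumor 1, 2 or 4 or tumor 1 or 2 (0.0525 to 0.0588).

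Further falls named after their values were seen were of several kinds. Gpr37l1, an orphan receptor of astrocytes, went from 7.05 ± 0.76 to 4.71 ± 0.34 (5.06-fold, adjusted p = 0.00496). Septin4, a cytoskeletal GTPase, was bright in both groups and went from 10.68 ± 0.15 to 9.12 ± 0.38 (2.94-fold, adjusted p = 0.000474). Prxl2a, a peroxiredoxin-like protein, went from 7.28 ± 0.27 to 5.66 ± 0.21 (3.06-fold, adjusted p = 0.000595). Chchd10, a mitochondrial intermembrane protein, went from 4.68 ± 0.81 to 2.40 ± 0.17 (at least 1.60-fold, adjusted p = 0.00408), and its call ended with a floor at 16. Pla2g7, the plasma form of platelet-activating factor acetylhydrolase, went from 6.34 ± 0.46 to 4.08 ± 1.01 (adjusted p = 0.0271; 0.112 with the 10 arrays alone, and 0.0525 to 0.0769 without pretumor 1, 2 or 4 or tumor 1 or 4).

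Progenitor genes held 2 calls, both falls. Of 35 neural stem, progenitor and Notch genes 2 fell and none rose, beside 0.957% of all genes called lower. None was called with the 10 arrays alone. The difference was over 0 for 26 of the 35, beside 57.2% of all genes, with a median of 0.05. At an unadjusted p under 0.05, 4 were higher and 3 lower. Sox2, a transcription factor of neural stem cells and of Bergmann glia, read 7.68, 8.90, 8.83, 8.29 and 8.53 in pretumor and 6.80, 6.20, 5.19, 7.91 and 5.83 in tumor. Tumor 4 overlapped the pretumor range. The 4.17-fold fall was called (adjusted p = 0.0453) but had 0.166 with the 10 arrays alone and 0.051 to 0.123 without any single array except tumor 4. Id4, an inhibitor of differentiation of astrocyte and neural precursors, went from 4.63 ± 0.28 to 3.91 ± 0.11 (adjusted p = 0.0176; 0.0706 with the 10 arrays alone, and 0.051 to 0.0518 without pretumor 1 or without tumor 4).

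Among neuronal genes, 1 of 13 Purkinje cell markers and 1 of 32 neurotransmitter receptors fell, and none rose. At an unadjusted p under 0.05 the Purkinje cell list had 5 lower and 1 higher, with 2 lower without overlap and a median difference of -0.09. The receptor list had 4 lower and 1 higher, with 2 lower without overlap and a median of 0.01. Calb1, the Purkinje cell calcium buffer calbindin, read 5.07, 3.43, 5.25, 4.59 and 2.95 in pretumor and 1.69 to 2.09 in tumor. It lay at the edge of the threshold (adjusted p = 0.0489; 0.0823 with the 10 arrays alone), and its call was lost without any array other than GCP 4 and pretumor 5 (0.0632 to 0.118). Gabrb1, a GABA-A receptor subunit, went from 4.67 ± 0.25 to 3.17 ± 0.50 (at least 1.59-fold, adjusted p = 0.00496) without overlap. Of 35 genes of synaptic vesicle release and 61 of axon guidance and migration none was called by limma, nor with the 10 arrays alone; at an unadjusted p under 0.05 the first list had 1 higher and 3 lower, the second 4 higher and 2 lower.

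Lists of metabolism and stress held some calls. Of 29 glycolysis and hypoxia genes 4 fell and none rose, beside 0.957% of all genes called lower. With the 10 arrays alone 1 was called. The median was -0.02, and at an unadjusted p under 0.05 limma gave 4 higher and 5 lower. Ndrg1, a stress-induced gene also strong in myelinating glia, read 7.73, 7.91, 6.83, 7.97 and 7.06 in pretumor and 5.05, 6.15, 6.00, 5.17 and 4.42 in tumor. The groups did not overlap and the fall was 4.42-fold (adjusted p = 0.00838; 0.0662 with the 10 arrays alone). Ldhb, a lactate dehydrogenase subunit, fell 1.43-fold (8.27 ± 0.12 to 7.75 ± 0.23, adjusted p = 0.0319; 0.132 with the 10 arrays alone, and 0.0508 to 0.0769 without any GCP array, pretumor 1, 2 or 4, or tumor 2 or 3). Aldoc, given above, and Eno2, the neuronal enolase and chosen after its values were seen, were the other calls, both inside the low band. Eno2 had an adjusted p of 0.0174, 0.0531 with the 10 arrays alone and 0.051 without pretumor 1. Mt2, a metal-binding metallothionein, was the only call of 22 metallothionein and oxidative stress genes and fell 2.40-fold (7.13 ± 0.42 to 5.87 ± 0.36, adjusted p = 0.0166; 0.0823 with the 10 arrays alone).

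Lipid synthesis genes held 1 call in each direction. Of 25 measured, the difference was under 0 for 18 and over 0 for 7, with a median of -0.08, beside 0.02 over all genes. At an unadjusted p under 0.05, 5 were lower and 1 higher. The summed intensity was 7713 to 9014 in pretumor and 6343 to 7758 in tumor. Acly, which makes cytosolic acetyl-CoA, rose and Scd1, a fatty acid desaturase, fell inside the low band (2.82 ± 0.14 to 1.68 ± 0.38, adjusted p = 0.00654). Acly read 9.99, 9.92, 10.02, 10.12 and 10.01 in pretumor and 10.28, 10.26, 10.33, 10.29 and 10.37 in tumor. The rise was small and even, 1.22-fold with no overlap (difference 0.29 ± 0.05, adjusted p = 0.0286). Its adjusted p was 0.0166 with the 10 arrays alone, and 0.0528 to 0.0787 without pretumor 1, 2 or 5 or tumor 1, 3, 4 or 5. The Acly call also ended with a floor at 16 (0.0829), with only probe sets of mean intensity 16 or more (0.113), after quantile normalization (0.0719) and with a trended robust prior (0.102).

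**Figure D3:**
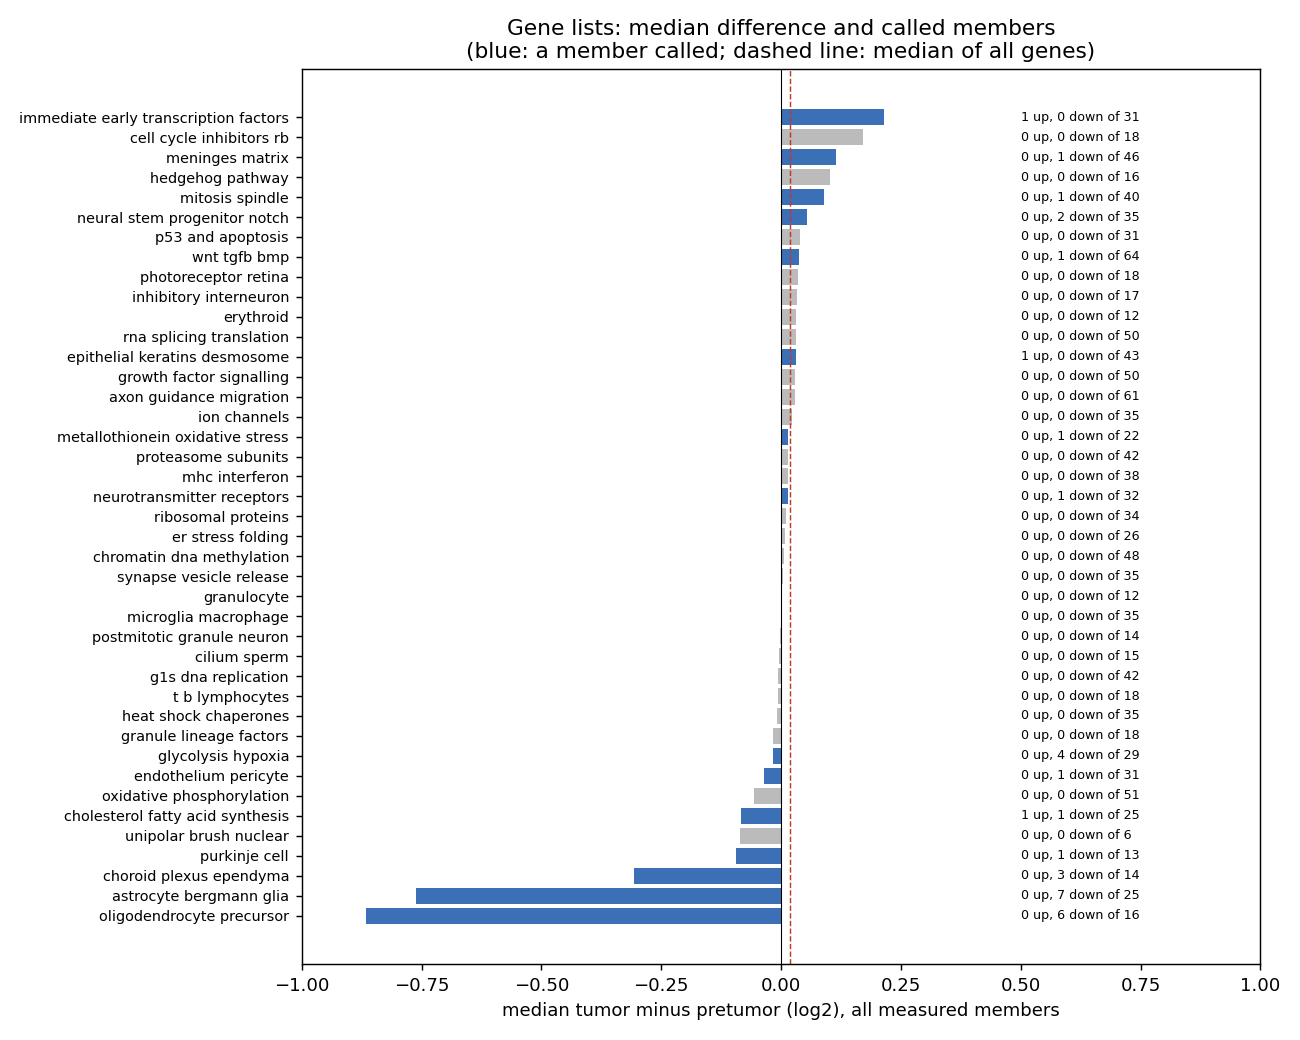
Bars give the median tumor minus pretumor difference (log2) over all measured members of each of the 41 lists; blue marks lists with a called member, the text at the right counts called members, and the dashed line is the median of all genes (0.02). The oligodendrocyte (-0.87), astrocyte (-0.76) and choroid plexus (-0.31) lists lie lowest, and immediate early factors highest (0.22).

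Fewer genes rose, and none of the named ones by as much as the large falls. Krt10, a keratin best known from differentiating skin, read 9.40, 10.00, 10.18, 9.42 and 9.57 in pretumor and 10.91, 11.46, 11.46, 11.01 and 10.44 in tumor. Every tumor was above every pretumor sample, and the rise was 2.53-fold (difference 1.34 ± 0.21, adjusted p = 0.00974; 0.0662 with the 10 arrays alone). GCP were lower still, at 7.64 ± 0.14, and a second probe set, in the low band, was not called (adjusted p = 0.752). Krt10 was the only call of 43 keratin and desmosome genes, of which 41 lay in the low band in both groups.

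The Krt10 promoter is shown as that of the brightest named gene with a rise above 2-fold, at chr11:99389315-99389614 on the minus strand (GRCm38.p6, RefSeq). Capitals mark its single match among the motifs searched, a CAGATG E-box read on the other strand as CATCTG, at -180.
Krt10: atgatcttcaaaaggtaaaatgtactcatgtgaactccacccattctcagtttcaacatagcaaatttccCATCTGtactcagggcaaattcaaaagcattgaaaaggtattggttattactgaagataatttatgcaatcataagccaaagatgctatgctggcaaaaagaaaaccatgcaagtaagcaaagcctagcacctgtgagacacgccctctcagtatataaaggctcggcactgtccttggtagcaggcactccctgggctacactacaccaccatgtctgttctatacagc

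Snx10, a sorting nexin of endosomes, read 5.08, 4.95, 4.90, 5.16 and 4.99 in pretumor and 6.02, 5.94, 6.11, 6.54 and 6.27 in tumor. Both groups were tight and apart, and the rise was 2.24-fold (difference 1.16 ± 0.10, adjusted p = 0.000282). Slc8a1, the plasma membrane sodium and calcium exchanger, read 3.83, 4.19, 4.23, 4.24 and 4.26 in pretumor and 5.37, 5.26, 5.38, 5.07 and 5.01 in tumor. It rose 2.10-fold (difference 1.07 ± 0.09, adjusted p = 0.000282), and GCP stood higher than both, at 5.77 ± 0.02. Both calls held with the 10 arrays alone (0.00433 and 0.00468).

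Myc, the growth-promoting transcription factor, read 2.31, 2.75, 1.88, 2.44 and 2.70 in pretumor and 4.85, 3.58, 5.07, 3.78 and 3.72 in tumor. All pretumor samples and tumors 2, 4 and 5 were in the low band, so only tumor 1 and tumor 3 gave a level above it. The rise was called (difference 1.78 ± 0.29, at least 1.15-fold, adjusted p = 0.0129) but not with the 10 arrays alone (0.0823) or a floor at 16. Mycn, its relative in the granule lineage and chosen after its values were seen, was at 7.49 ± 0.21 and 6.89 ± 1.04 (adjusted p = 0.649).

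Cdk8, a kinase of the Mediator complex, went from 7.78 ± 0.09 to 8.35 ± 0.19 (1.49-fold, adjusted p = 0.0237), with 0.0444 for the 10 arrays alone and 0.0568 to 0.0645 without pretumor 1, 2, 4 or 5 or tumor 2. Mrps22, a mitochondrial ribosomal protein, went from 5.81 ± 0.14 to 6.48 ± 0.30 (1.59-fold, adjusted p = 0.0333; 0.111 with the 10 arrays alone, and 0.0519 to 0.0842 without GCP 1 or 3, pretumor 1, 2 or 4, or tumor 4 or 5). Selenof, an endoplasmic reticulum selenoprotein, went from 11.09 ± 0.18 to 11.47 ± 0.11 (1.30-fold, adjusted p = 0.047; 0.163 with the 10 arrays alone, and 0.0565 to 0.111 without any array except pretumor 2 and tumor 5). The tumor values of these 3 genes did not overlap the pretumor values. A second Selenof probe set, above the low band in both groups, was higher by 0.34 and was not called (limma adjusted p = 0.306).

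**Figure D4:**
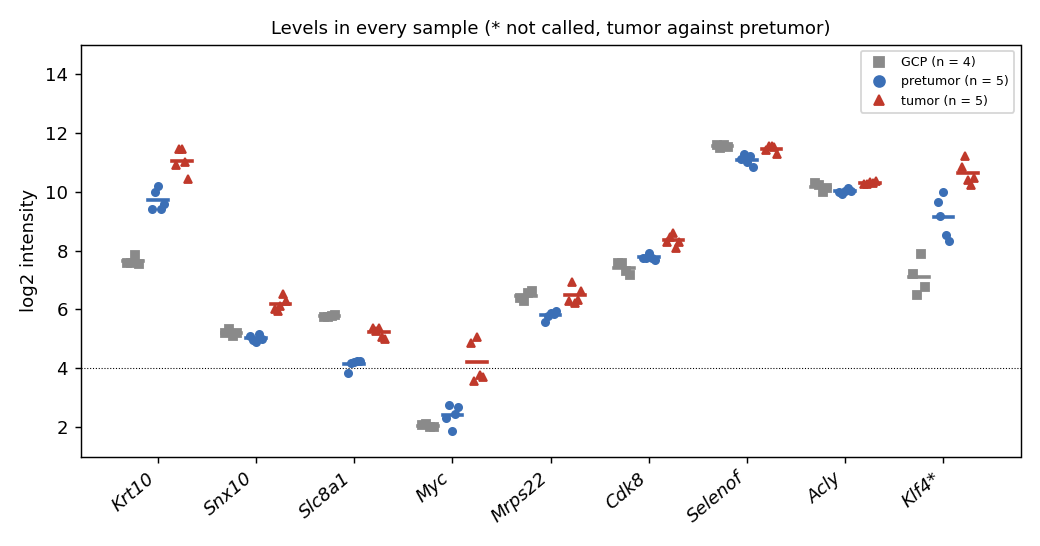
Log2 intensity (y axis) in every GCP, pretumor and tumor sample for Krt10, Snx10, Slc8a1, Myc, Mrps22, Cdk8, Selenof, Acly and Klf4. Bars are group means, the dotted line is the low band at log2 4, and an asterisk marks a gene that was not called. The tumor values of Snx10 (5.94 to 6.54) lie above all pretumor values (4.90 to 5.16).

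Immediate early factors, which respond within minutes to growth factors and other stimuli, had a single call among 31, Myc. The difference was over 0 for 23 of the 31, with a median of 0.22, beside 57.2% of all genes over 0, and 7 members were higher and 0 lower at an unadjusted p under 0.05. No member was called with the 10 arrays alone. Klf4, a zinc finger factor, read 9.65, 9.18, 9.98, 8.52 and 8.32 in pretumor and 10.85, 11.21, 10.41, 10.24 and 10.47 in tumor; the groups did not overlap and it was not called (adjusted p = 0.0859). Fos was at 12.24 ± 0.32 and 12.96 ± 0.29 (adjusted p = 0.151). Klf4 and Fos were chosen after their values were seen.

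Hedgehog and cell cycle genes gave few or no calls. None of 16 hedgehog pathway genes was called by limma, nor with the 10 arrays alone, with 2 higher and 0 lower at an unadjusted p under 0.05. The brightest of them, the Polycomb protein Bmi1, was at 10.34 ± 0.39 and 10.54 ± 0.37 (adjusted p = 0.785). Ccnd1, cyclin D1, chosen after its values were seen, was at 6.31 ± 0.32 and 7.03 ± 0.59, with overlap (adjusted p = 0.277). Of 42 genes of G1/S and DNA replication none was called in either fit (4 higher and 1 lower at an unadjusted p under 0.05), and Pcna, the replication clamp, was at 10.62 ± 0.42 and 10.90 ± 0.29 (adjusted p = 0.671). Of 40 mitosis and spindle genes only Stmn1, a microtubule-destabilising protein, was called: it read 13.44 to 13.53 in pretumor and 13.15 to 13.36 in tumor, a 1.17-fold fall (adjusted p = 0.0075). Its call ended with the 10 arrays alone (0.0531), with only probe sets of mean intensity 16 or more (0.191) and with a trended robust prior (0.0707).

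Markers of blood, vessel and immune cells held a single call. Of 31 endothelium and pericyte markers Abcb1a, the drug efflux pump of brain vessels, was the single call, inside the low band (2.00 ± 0.15 to 1.39 ± 0.14, adjusted p = 0.00381); it was the 1 member called with the 10 arrays alone. At an unadjusted p under 0.05 the list had 9 lower and 1 higher, 5 were lower without overlap and none higher, and the median difference was -0.03. Cldn5, the tight-junction claudin of brain vessels, chosen after its values were seen, went from 4.39 ± 0.40 to 2.93 ± 0.74 without overlap and was not called (adjusted p = 0.06). It was called with array weights (0.00796), with only probe sets of mean intensity 16 or more (0.017), with a pseudocount of 1 (0.0433), with a trended robust prior (0.0398) and without tumor 3 (0.0197). The summed intensity was 1282 to 1498 in pretumor and 445.4 to 1398 in tumor. Hba-a1, alpha globin of red cells, read 11.10, 8.79, 9.19, 8.77 and 10.41 in pretumor and 7.61, 7.90, 3.66, 2.80 and 6.67 in tumor. The values did not overlap and it was not called (adjusted p = 0.0954); 10 of the 12 erythroid markers were in the low band in both groups, and the list summed to 774.6 to 3446 in pretumor and 44.9 to 418.7 in tumor. Of 35 microglia and macrophage markers none was called (3 higher and 1 lower at an unadjusted p under 0.05, 0 with the 10 arrays alone), with sums of 4710 to 9129 and 2977 to 7602. All 18 lymphocyte markers lay in the low band in both groups. The part of these cells in the other results was not tested.

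The falls were not equally deep in each tumor. Over the 51 genes called lower with a mean above the low band, the median difference from the pretumor mean was -1.76 in tumor 1, -1.45 in tumor 2, -1.50 in tumor 3, -2.33 in tumor 4 and -2.29 in tumor 5. The means that chose these genes include these tumors, so the values are a description. Of the 51, the GCP mean lay between the pretumor and tumor means for 33, above both for 15 and below both for 3. Of the 9 genes called higher above the band, GCP lay below both means for 4, between for 3 and above both for 2.

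The spread among tumors was larger than among pretumor samples for bright probe sets. Over 3573 probe sets above the low band in both groups the median SD was 0.226 in pretumor, 0.296 in tumor and 0.195 in GCP, and the tumor SD was the larger in 65.9%. Over all 12422 the medians were 0.134 and 0.133, and the tumor SD was the larger in 49.0%. Among genes with a tumor mean of 64 or more the largest tumor SD after that of Ttr was that of Mtm1, a lipid phosphatase, at 5.88, 9.51, 2.49, 5.93 and 9.10 in tumor 1 to 5. Pretumor samples also differed widely for it, from 4.68 to 8.87. A second Mtm1 probe set did not show this spread: it lay in the low band, at 2.74 ± 0.21 in pretumor and 2.70 ± 0.38 in tumor. Mab21l2, a developmental gene of eye and midbrain, was at 7.69, 10.33, 3.80, 9.98 and 8.72 in the tumors, with tumor 3 far below the rest. Its pretumor values also ran widely, from 4.05 to 8.54. Fosb, an AP-1 subunit, was at 9.72, 9.84 and 9.18 in tumor 2, 4 and 5 but 6.43 and 6.35 in tumor 1 and 3. In pretumor it ran from 5.07 to 8.20.

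Ero1b, an oxidase of the endoplasmic reticulum, was high in tumor 2 and tumor 3 (9.31 and 9.86) and 5.55 to 6.64 in the others. In pretumor it ran from 5.78 to 7.42. Dusp16, a MAP kinase phosphatase, was high in tumor 2 and tumor 3 (7.46 and 8.36, against 4.57 to 5.01 in the other tumors). Pretumor samples also varied for it, from 5.42 to 8.11, with pretumor 3 highest. Usp22, a histone deubiquitinase, was at 2.43 in tumor 2 and 6.46 to 8.61 in the other tumors. It was also at 3.07 in pretumor 3 and 3.81 in GCP 3. Its SD was 2.55 in tumor, 2.23 in pretumor and 2.12 in GCP, so it varied in all 3 groups. Dcn, the matrix proteoglycan decorin, was at 2.95 in tumor 4, 5.68 to 7.84 in the other tumors and 6.10 to 7.19 in pretumor. Lcn2, an iron-carrying protein of granulocytes and of stressed epithelium and glia, was in the low band in all pretumor samples and in tumor 3 and tumor 5, and at 6.14, 8.27 and 5.98 in tumor 1, 2 and 4 (adjusted p = 0.294). The other 11 granulocyte markers lay in the low band in both groups.

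**Figure D5:**
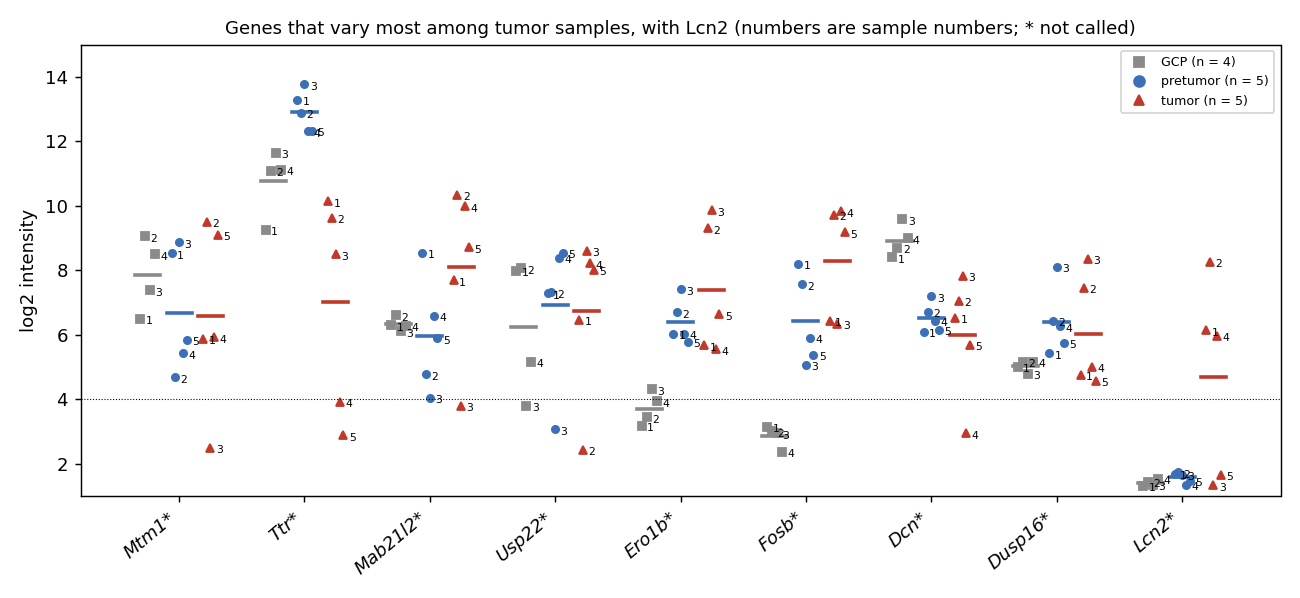
Log2 intensity (y axis) in every sample for the genes with the largest SD among tumors and for Lcn2; numbers are sample numbers, bars are group means, the dotted line is the low band at log2 4, and an asterisk marks genes that were not called. Ttr runs from 10.14 in tumor 1 to 2.88 in tumor 5.

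Some of the largest rises could not be given a gene. Of the 124 called probe sets 107 list a single gene symbol, 8 list several and 9 list none. The largest rise of all, probe set 93908_f_at with several symbols, read 6.84, 7.69, 6.27, 8.52 and 9.41 in pretumor and 9.72, 10.31, 11.25, 11.48 and 11.03 in tumor. It rose 8.07-fold without overlap (adjusted p = 0.0271; 0.11 with the 10 arrays alone, and up to 0.0769 without pretumor 1 or 2 or tumor 3, 4 or 5). Probe set 93907_f_at, also with several symbols, went from 12.09 ± 0.38 to 13.47 ± 0.43 (adjusted p = 0.0118; 0.0664 with the 10 arrays alone). In the other direction 92801_at, with no symbol, read 11.74, 12.08, 12.29, 12.24 and 11.65 in pretumor and 9.58, 9.29, 8.50, 7.23 and 5.85 in tumor, a 15.1-fold fall (adjusted p = 0.0166; 0.0614 with the 10 arrays alone).

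The 3 genes just inside were Grhpr (adjusted p = 0.0489), Calb1 (0.0489) and Itih3 (0.047). Acot13, a thioesterase, and Selenof were tied with Itih3 at 0.047. The calls of Grhpr, Calb1 and Itih3 were lost with the 10 arrays alone. The call of Grhpr, a glyoxylate reductase, ended without any array except tumor 5, and that of Itih3, a hyaluronan-binding plasma protein, without any except pretumor 3 and tumor 2, at adjusted p up to 0.121 and 0.111. The 3 just outside were Atp6ap1, a proton pump subunit (0.0513), Pdzd11, a scaffold protein (0.0532), and Vps28, of the endosomal sorting machinery (0.0548). All 3 were lower in every tumor than in every pretumor sample, and Vps28 was called with the 10 arrays alone (adjusted p = 0.0459).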

How the data were processed

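The deposited table gives 1 linear intensity per probe set and array, as the authors made it; their summary and normalization method was not given in the sources used here. Control probe sets (66) were left out. Intensities were floored at their 10th percentile (2.46) and taken to log2. limma 3.58.1 in R 4.3.3 (lmFit, eBayes) fitted 3 group means to all 14 arrays (11 residual degrees of freedom, 3 of them from GCP), and p-values were adjusted by Benjamini-Hochberg over 12422 probe sets. Per the deposited annotation, 10833 probe sets list 1 gene; the probe set with the highest mean stood for each gene. Named were Ptch1, the 15 largest called rises and falls without overlap, up to 3 members of each list, the 8 genes most variable among tumors, and 3 genes on each side of the threshold; others are marked as chosen after their values were seen. The members and lists were chosen with earlier results of these data known. Alternatives changed the arrays fitted, array weights, floor, pseudocount, filter, normalization and prior. The fit was tested on simulated data with independent arrays and the same spread in all groups. That setting does not cover the larger spread among tumors. Array number limits the precision.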

Additional observations from a re-analysis of the deposited data

Results flagged for a closer look

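In 11 of the 174 groups of 5 samples tested among the named genes, the highest or lowest sample stood apart from the other 4 by more than 0.71 of the group's range; chance gives about 1 in 20 groups. In pretumor samples these were Akt1 in pretumor 3 (8.58), Hspa5 in pretumor 1 (12.21), Mtx2 in pretumor 3 (4.92), Ogfod2 in pretumor 4 (7.08), Slc8a1 in pretumor 1 (3.83) and Usp22 in pretumor 3 (3.07). In tumor samples they were Mbp in tumor 5 (4.87), Neurod1 in tumor 2 (10.78), Pax6 in tumor 1 (8.90), Reln in tumor 1 (11.09) and Stmn2 in tumor 2 (9.26). Values are log2 intensities.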

How the results depend on the processing

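The count of 124 called probe sets (26 higher, 98 lower) became 50 (4 and 46) with the 10 compared arrays alone, 393 (141 and 252) with array weights and 32 (4 and 28) with a floor at 16. The titles share replicate numbers. Deviations of same-numbered samples from their group means had correlations of -0.32, -0.17, -0.04, 0.30 and 0.03. Those of differently numbered samples ran from -0.48 to 0.48, so these values cannot tell whether the numbers pair samples. A fit of the 10 compared arrays with the replicate number as a block called 1 probe set (0 higher, 1 lower). That fit left 4 residual degrees of freedom. Leaving out each array in turn gave 70 to 148 called, 9 to 38 of them higher and 60 to 110 lower. Of the 52 named calls none changed direction; 25 were lost with the 10 arrays alone, 27 with a floor at 16 and 51 with the block, and 30 held without every single array. The calls of Abcb1a, Acly, Aldoc, Bmp6, Calb1, Cdk8, Chchd10, Eno2, Folr1, Gja1, Gjb6, Grhpr, Gsn, Id4, Itih3, Ldhb, Mag, Mog, Mrps22, Msx1, Myc, Ntsr2, Ogfod2, Plpp3, Scd1, Selenof and Sox2 were those lost with the floor (adjusted p 0.0674 to 1). Selenof and Sox2 were lost with array weights, Acly, Selenof and Stmn1 under the filter on mean intensity and the trended robust prior, Acly, Grhpr, Ldhb and Selenof after quantile normalization, and Calb1, Folr1, Grhpr, Itih3 and Mag with a pseudocount of 16. The 5 named genes that changed sign were not called. Over single omissions the B2m difference ran from -0.22 to 0.16 (0.022, 0.16, 0.14 and 0.15 without pretumor 2, pretumor 3, tumor 4 or tumor 5), that of Hnrnpa2b1 from -0.084 to 0.16 (-0.084, -0.0085, -0.057 and -0.011 without pretumor 1, pretumor 4, tumor 1 or tumor 2), that of Reln from -0.080 to 0.22 (-0.080 and -0.079 without pretumor 2 or tumor 1), that of Slc25a4 from -0.027 to 0.088 (-0.0045 and -0.027 without pretumor 1 or tumor 2) and that of Stmn2 from -0.40 to 0.028 (0.028 without tumor 2). Slc25a4 was at -0.0025 after quantile normalization and Stmn2 at 0.0038 without pretumor 3 and tumor 2. The share of calls that were higher was 21.0% in the fit reported, 35.9% with array weights and 8.00% with the 10 arrays alone. The cause of these shifts was not tested. Levels in the low band rest on signal near background.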

Other observations

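Ogfod2, an oxygenase-domain protein, was called higher although tumor 1 (7.07) lay just below pretumor 4 (7.08): it went from 6.57 ± 0.30 to 7.80 ± 0.58 (2.34-fold, limma adjusted p = 0.0429, 0.146 with the 10 arrays alone). Its call ended without any GCP array, pretumor 1, 2, 3 or 5, or tumor 2, 3 or 4 (adjusted p 0.059 to 0.111). Bag3, a co-chaperone, gave different calls from its 2 probe sets: the brighter went from 8.99 ± 0.60 to 7.87 ± 0.74 (adjusted p = 0.219), and the dimmer, inside the low band, from 3.93 ± 0.30 to 2.85 ± 0.25 (adjusted p = 0.00624). Foxf2, a forkhead factor, was higher by 1.23 with overlap and was not called (adjusted p = 0.0577), at 5.79, 4.78, 5.73, 6.27 and 5.57 in the tumors and 3.86 to 5.08 in pretumor; GCP were at 1.67 ± 0.24. Lyz2, lysozyme of macrophages and granulocytes, was at 7.25 ± 0.51 in pretumor and 8.46 ± 0.62 in tumor (adjusted p = 0.272). These genes were chosen after their values were seen.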
